A study of Mus musculus with 5 samples.

Results

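The 9 genes described here encode steroid hormone receptors, the coactivators that bind to them and a chaperone of the receptor complex. Pgr encodes the progesterone receptor, Esr1 estrogen receptor alpha, Nr3c1 the glucocorticoid receptor and Nr3c2 the mineralocorticoid receptor. Ncoa1, Ncoa2 and Ncoa3 encode the p160 coactivators, Ncoa6 a coactivator that works with histone methyltransferases, and Fkbp4 the immunophilin FKBP52. They were taken by symbol from the 23420 genes of the deposited count table, and all 9 were found. RNA-seq was performed on the luminal layer of the uterus, cut out by laser microdissection from wildtype C57BL/6N females, in 5 libraries. Pregnancy was counted from the day of the vaginal plug, day 1, and the first 3 libraries came from the morning of day 3 and from the morning and the evening of day 4. The other 2 came from day 5 morning, when embryos have attached: 1 from the luminal layer at a distance from the attached embryo, called the remote layer below, and 1 from the layer that surrounds it, called the peri-embryo layer. The sample descriptions also carry the words Mpole for the remote and Ampole for the peri-embryo layer, which the labels do not spell out, so the place at a pole of the uterus and the distance from the embryo cannot be told apart. The day 5 mice had been given Chicago blue dye in saline intravenously to make implantation sites visible. The age of the mice was not given in the sources used here. For other laser-dissected groups of the study, RNA of several independent samples went into each library, and whether this holds for these wildtype libraries was not given either. With 1 library per condition, no difference below has a replicate check and no p-value is given, so every comparison is between libraries and its interval covers counting error only.

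Steroid receptors are transcription factors that wait for their hormone in a complex with the chaperone Hsp90 and with cochaperones such as FKBP52 and FKBP51, the product of Fkbp5. Bound to hormone, they sit on hormone response elements and recruit p160 coactivators, which bring in the acetyltransferases CBP and p300, whereas corepressors such as NCoR act in the opposite direction. In the mouse uterus, ovarian progesterone and a short pulse of estrogen prepare the luminal epithelium for embryo attachment, epithelial Pgr is known to decline around that time, and mice that lack Fkbp4 or Ncoa2 are known for uteri that respond poorly to progesterone.

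The total counts per library lay between 15334674 and 19529491, of which the features Rn45s and Lars2 held up to 23.2%. Levels are given as CPM, counts scaled to the library by TMM, and for comparisons between genes as RPKM, which also divides by the gene length in the deposited table. A mean level of 1 CPM or more was reached by 12915 genes, among them 8 of the 9 described here (Nr3c2 fell short), and these 12915 are called the genes kept. Differences are log2 values with a prior count of 2, and a gene is called higher or lower where it differed by more than 2-fold. Values in brackets are the bounds of an exact 95% Clopper-Pearson interval on the count ratio. Markers of epithelium (Krt8, Krt18, Krt19, Cdh1, Epcam) were counted in every library, at 2622 to 4954 CPM in sum. All 9 stromal markers (Vim, Col1a1, Col1a2, Col3a1, Pdgfra, Dcn, Hoxa10, Hoxa11, Hand2) were counted in every library too, at 417 to 590 CPM in sum. The peri-embryo library stood apart from the others. Its 6 embryo and trophoblast markers (Cdx2, Pou5f1, Nanog, Elf5, Eomes, Tfap2c) summed to 98.6 CPM against 4.72 to 12.5 CPM elsewhere, with Pou5f1, Nanog and Cdx2 at 68, 10 and 22 counts there and at 0 in the other 4 libraries. Its 4 smooth muscle markers (Acta2, Myh11, Des, Actg2) summed to 377 CPM against 7.77 to 27.3 CPM elsewhere, largely through Des, and its 4 leukocyte markers (Ptprc, Adgre1, Csf1r, Lyz2) to 48.5 CPM against 215 to 323 CPM. In such mixed material, fewer cells of a type and less RNA per cell cannot be told apart.

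The sequences before the start sites of Pgr, Esr1 and Fkbp4 are shown because these are the receptor gene with the widest range of levels, the receptor gene at the highest level on day 5, and the most abundant of the 9 genes. Each run is the 250 bases upstream of a RefSeq start site in GRCm38.p6, written 5′ to 3′ on the strand of the gene, and capitals mark the letters of the motifs searched.
Pgr, chr9:8899583-8899832, plus strand: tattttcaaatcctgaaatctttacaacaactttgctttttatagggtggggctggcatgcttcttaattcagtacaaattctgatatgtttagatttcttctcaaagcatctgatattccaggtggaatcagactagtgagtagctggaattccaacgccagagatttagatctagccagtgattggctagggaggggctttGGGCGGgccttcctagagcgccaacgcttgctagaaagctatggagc
Esr1, chr10:4611739-4611988, plus strand: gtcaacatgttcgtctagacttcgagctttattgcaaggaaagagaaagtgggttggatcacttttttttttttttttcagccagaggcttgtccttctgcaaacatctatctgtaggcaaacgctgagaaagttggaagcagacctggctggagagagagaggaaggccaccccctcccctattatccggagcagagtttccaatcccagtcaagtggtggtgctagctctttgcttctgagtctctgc
Fkbp4, chr6:128438657-128438906, minus strand: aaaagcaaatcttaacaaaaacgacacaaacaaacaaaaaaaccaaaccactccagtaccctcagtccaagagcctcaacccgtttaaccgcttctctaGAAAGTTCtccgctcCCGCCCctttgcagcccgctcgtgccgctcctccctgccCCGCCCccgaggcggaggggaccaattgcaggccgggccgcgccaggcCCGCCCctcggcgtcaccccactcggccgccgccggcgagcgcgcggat

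Start sites from the RefSeq table were used for 6 of the 9 genes: Pgr, Esr1, Nr3c2, Ncoa1, Ncoa6 and Fkbp4. No window was searched for the remaining genes. Windows of 300 bases, 250 before and 50 from the start on, were searched on both strands, with motifs that were chosen after the expression values were known. The full estrogen response element GGTCANNNTGACC stood in none of these windows, and 0.0700% of all 32851 promoters of the same length hold it. The element GNACANNNTGTNC, shared by the progesterone and corticoid receptors, was also found in none of them, and 0.475% of all promoters hold it. The Pgr window held a single GC box, GGGCGG, at bases -47 to -42 from the start, a motif present in 35.7% of all promoters. The Fkbp4 window held 3 GC boxes and, at bases -151 to -144, the heat shock element core GAANNTTC, which 7.86% of all promoters hold. The Esr1 window, that of the first of 2 start sites, held only the letters GGTCA, at bases 16 to 20 after the start and so beyond the run shown, which has no capitals. These letters stand in 40.5% of all promoters. The window of the other Esr1 start site, not shown, held the Stat motif TTCNNNGAA at bases -188 to -180, as 8.30% of all promoters do. These matches describe letters in the windows and do not bear on whether a factor binds there.

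Pgr, on chr9:8899833-8968611 of mm10, had the widest range of the 8 genes kept, and its level was lower at each later stage. Per length, it stood at 60.3 RPKM on day 3, at 24.2 and 20.7 RPKM in the morning and evening of day 4, and at 3.87 and 5.10 RPKM in the remote and peri-embryo layers of day 5. The highest of these levels was 15.5 times the lowest, a range of 3.96 on the log2 scale, which exceeded the range of 89.6% of the genes kept. By RPKM, Pgr lay above 90.4% of the genes kept on day 3 and above 37.7% of them in the remote layer. All 4 steps in the order of the levels lay outside counting error. The smallest of them was the step within day 4, at 0.22 [0.14, 0.30] on the log2 scale, and the largest was that from day 4 evening to the peri-embryo layer, at 2.02 [1.89, 2.16]. Within day 5, Pgr was higher in the peri-embryo than in the remote layer by 0.40 [0.23, 0.57], which was within 2-fold. Scaled by library totals, this last difference shrank to 0.09.

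**Figure D1:**
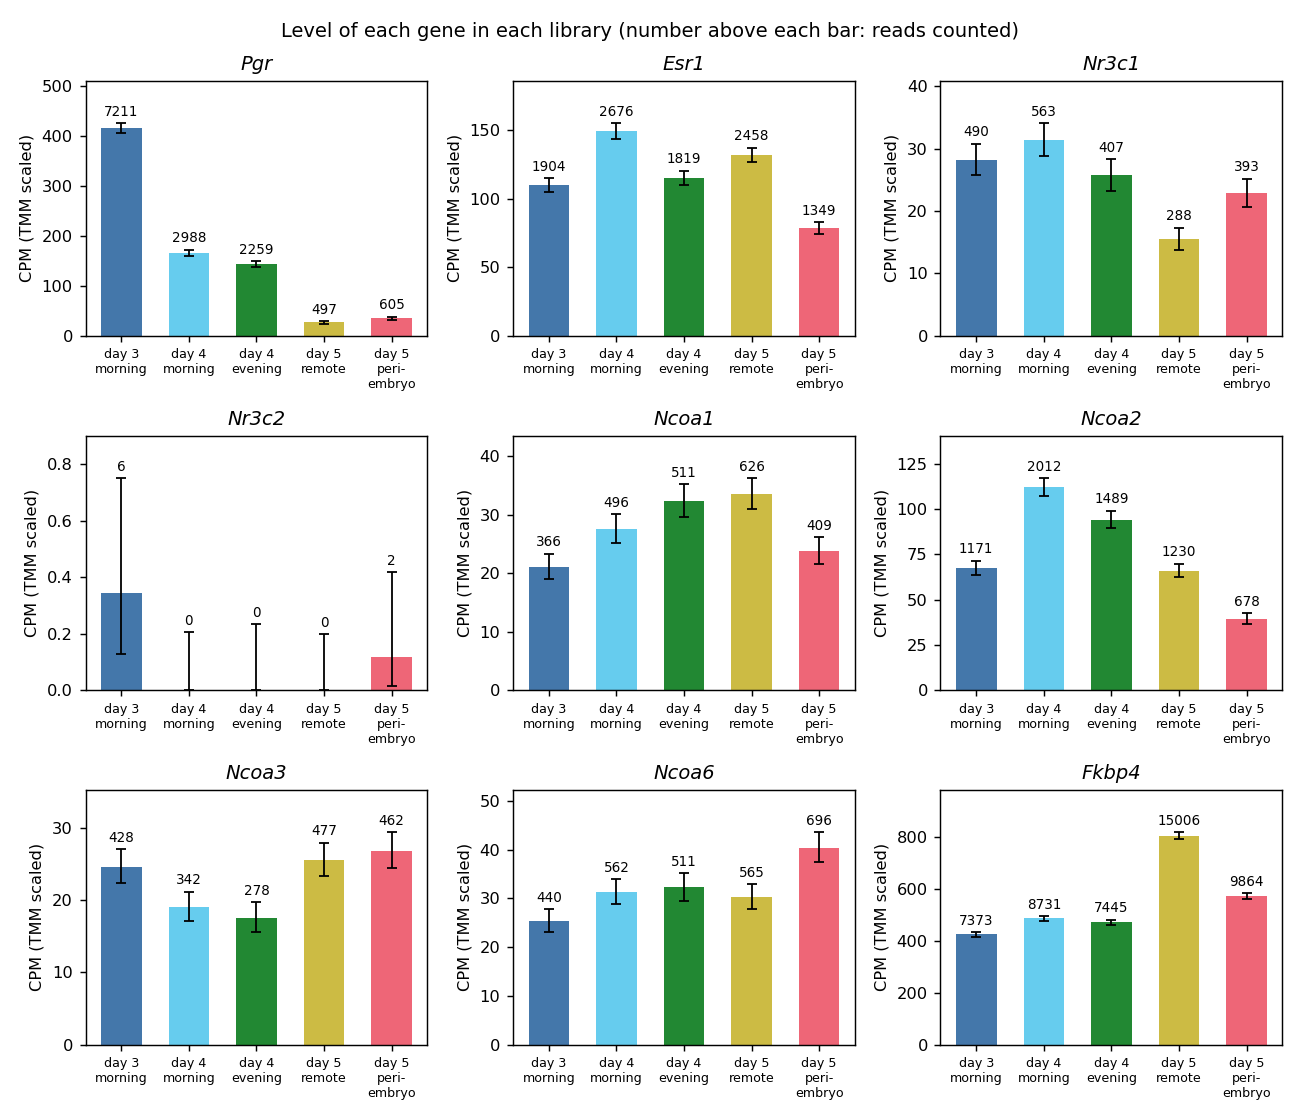
Level of each of the 9 genes in CPM after TMM scaling (vertical axes, each from 0) in the 5 libraries, with the count above each bar and exact 95% Poisson intervals as error bars. Pgr drops from 415 CPM on day 3 to 26.6 and 35.1 CPM in the day 5 libraries, Fkbp4 peaks at 805 CPM in the remote layer, and Nr3c2 has 6 counts or fewer everywhere.

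Esr1, on chr10:4612046-5003761, was far steadier than Pgr. Its levels were 25.4 RPKM on day 3, 34.5 and 26.6 RPKM in the morning and evening of day 4, and 30.5 and 18.1 RPKM in the remote and peri-embryo layers. The whole range was 0.93 on the log2 scale, wider than that of only 31.5% of the genes kept, and no comparison passed 2-fold with TMM scaling. Day 4 evening and day 3, neighbours in the order of levels, were indistinguishable by counting error (log2 difference 0.07 [-0.02, 0.16]). The peri-embryo level was the lowest, at -0.93 [-1.02, -0.83] against day 4 morning and -0.75 [-0.85, -0.65] against the remote layer. With library totals as the scale, the latter difference passed 2-fold, at -1.06, and the small difference of the remote layer from day 4 morning moved from -0.18 to 0.10. With totals that leave out Rn45s and Lars2, the peri-embryo level passed 2-fold against day 4 morning too, at -1.08.

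These different courses of Pgr and Esr1 shifted their balance within the same libraries, a comparison that needs no scaling between libraries. Per length, the ratio of Pgr to Esr1 was 2.37 [2.26, 2.50] on day 3, 0.700 [0.664, 0.738] on day 4 morning and 0.779 [0.732, 0.829] in the evening. It was 0.127 [0.115, 0.140] in the remote and 0.281 [0.255, 0.310] in the peri-embryo layer. Per length, Pgr stood above Esr1 in 1 of the 5 libraries, that of day 3. This rests on the deposited gene lengths: the plain ratio of counts was 3.79 on day 3, 1.12 and 1.24 in the morning and evening of day 4, and 0.202 and 0.448 in the remote and peri-embryo layers, so that by counts Pgr stood above Esr1 in 3 libraries. Of the summed RPKM of the 4 receptor genes, Pgr made up 66.8% on day 3 and 10.5% in the remote layer, whereas Esr1 made up 28.1% and 82.9%. The sum itself was 90.2 RPKM on day 3, 63.6 and 51.4 RPKM on day 4, 36.8 RPKM in the remote and 26.9 RPKM in the peri-embryo layer.

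Nr3c1, on chromosome 18, was counted at a low and rather even level. Its levels were 4.46 RPKM on day 3, 4.95 and 4.06 RPKM in the morning and evening of day 4, and 2.44 and 3.61 RPKM in the remote and peri-embryo layers. Among the 4 libraries with the highest levels, counting error did not separate neighbours. The remote layer stood clear as the lowest, with the peri-embryo layer 0.56 [0.34, 0.79] above it on the log2 scale. Against day 4 morning, the remote layer was at -1.02 [-1.23, -0.81], just past 2-fold, and with library totals it was at -0.74 and no longer past it. The ratio of Nr3c1 to Pgr per length was 0.0740 [0.0674, 0.0811] on day 3, 0.205 [0.187, 0.224] on day 4 morning, 0.631 [0.544, 0.731] in the remote and 0.707 [0.621, 0.804] in the peri-embryo layer. Relative to Esr1, Nr3c1 was lowest in the remote layer, at 0.0800 [0.0705, 0.0904] per length, and highest in the peri-embryo layer, at 0.199 [0.177, 0.223].

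Nr3c2, on chr8:76902508-77243639, was barely counted. It had 6 counts on day 3, 2 counts in the peri-embryo layer and 0 counts in the other 3 libraries, which allows up to 3 counts, or 0.161 to 0.190 CPM, in each. Set against that floor of 3 counts per library, the day 3 level was at least 2.07-fold higher than on day 4 morning, at least 1.82-fold higher than on day 4 evening and at least 2.15-fold higher than in the remote layer, bounds that leave out the counting error of the 6 counts. With that error, the exact lower limit against day 4 morning was only 0.28 on the log2 scale, which is within 2-fold. The log2 ratio of day 3 to the peri-embryo layer was 1.57 [-0.91, 4.91], so these could not be ordered.

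The p160 coactivators took separate courses, and Ncoa2 was the most abundant of them per length in every library. Ncoa2, on chr1:13139159-13374083, stood at 8.21 RPKM on day 3, 13.6 and 11.5 RPKM in the morning and evening of day 4, and 8.03 and 4.79 RPKM in the remote and peri-embryo layers. Its peak was on day 4 morning, and day 3 and the remote layer did not differ beyond counting error (0.03 [-0.08, 0.15] on the log2 scale). Its range, 1.51, was second to that of Pgr among the 8 genes kept. The peri-embryo level was lower than on day 4 morning by more than 2-fold, at -1.51 [-1.64, -1.38], and stood at -0.74 [-0.88, -0.61] against the remote layer. With library totals this latter difference passed 2-fold as well, at -1.05.

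Ncoa1, on chr12:4247362-4477182, stood at 2.88 RPKM on day 3, 3.77 and 4.41 RPKM in the morning and evening of day 4, and 4.58 and 3.24 RPKM in the remote and peri-embryo layers. Its levels on day 4 evening and in the remote layer did not differ beyond counting error. Ncoa3, on chr2:165992637-166073242, had its lowest values on day 4, at 2.53 RPKM in the morning and 2.33 RPKM in the evening. On day 3 it stood at 3.27 RPKM, in the remote layer at 3.40 RPKM and in the peri-embryo layer at 3.56 RPKM, and counting error did not separate neighbours among these 3 libraries. No difference of Ncoa1 or Ncoa3 passed 2-fold in any of the 5 comparisons. Exons of Ncoa3 share 154 bases with Sulf2 on the opposite strand in GENCODE, and those of Ncoa1 share 68 bases with the antisense gene 4921501I09Rik. The strand setting of the counting was not given in the sources used here, so reads in those bases cannot be assigned to a gene with certainty. Sulf2 itself had 89 to 534 counts per library.

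Ncoa2 made up 57.2% of the summed RPKM of the 3 p160 genes on day 3, 68.4% on day 4 morning, 63.0% on day 4 evening, 50.2% in the remote and 41.3% in the peri-embryo layer. The share of Ncoa3 was lowest on day 4 morning, at 12.7%, and highest in the peri-embryo layer, at 30.7%. Per length, the ratio of Ncoa3 to Ncoa2 was 0.399 [0.356, 0.446] on day 3, 0.185 [0.165, 0.208] and 0.204 [0.178, 0.232] in the morning and evening of day 4, and 0.423 [0.380, 0.470] and 0.743 [0.659, 0.838] in the remote and peri-embryo layers. The ratio of Ncoa1 to Ncoa2 was lowest on day 4 morning as well, at 0.276 [0.250, 0.305], and highest in the peri-embryo layer, at 0.676 [0.596, 0.765]. The p160 sum was 14.4 RPKM on day 3, 19.9 and 18.2 RPKM on day 4, 16.0 RPKM in the remote and 11.6 RPKM in the peri-embryo layer.

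Ncoa6, on chr2:155390656-155440783, was highest in the peri-embryo layer. Its levels were 3.69 RPKM on day 3, 4.55 and 4.70 RPKM in the morning and evening of day 4, and 4.41 and 5.88 RPKM in the remote and peri-embryo layers. Both libraries of day 4 and the remote layer did not differ from each other as neighbours beyond counting error. The peri-embryo level exceeded the remote level by 0.41 [0.25, 0.58] on the log2 scale, within 2-fold.

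Fkbp4, on chr6:128430107-128438631, was the most abundant of the 9 genes per length in every library, above 97.4% or more of the genes kept. Its levels were 196 RPKM on day 3, 224 and 217 RPKM in the morning and evening of day 4, and 371 and 264 RPKM in the remote and peri-embryo layers. The remote layer, where Pgr was lowest, had the highest Fkbp4 level, at 0.73 [0.69, 0.76] on the log2 scale against day 4 morning, and the peri-embryo layer lay at -0.49 [-0.53, -0.45] against it. The first of these differences was within 2-fold and came to 1.01, just past it, with library totals. The differences of day 3 and of day 4 evening from day 4 morning, -0.20 and -0.05, took the other sign with library totals.

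Fkbp5, which encodes the related cochaperone FKBP51 and is a classical target of progesterone and glucocorticoid receptors, followed a different course. It had 576 counts on day 3, 1747 and 1528 in the morning and evening of day 4, and 540 and 489 in the remote and peri-embryo layers. Against day 4 morning it was lower by more than 2-fold on day 3, at -1.55 [-1.69, -1.42], in the remote layer, at -1.74 [-1.89, -1.61], and in the peri-embryo layer, at -1.77 [-1.92, -1.63]. Per length, Fkbp4 exceeded Fkbp5 20.7-fold [19.0, 22.6] on day 3, 8.08-fold [7.68, 8.51] on day 4 morning and 7.88-fold [7.46, 8.33] on day 4 evening. On day 5 the ratio was 44.9 [41.2, 49.1] in the remote and 32.6 [29.8, 35.8] in the peri-embryo layer, so that it was lowest on day 4.

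**Figure D2:**
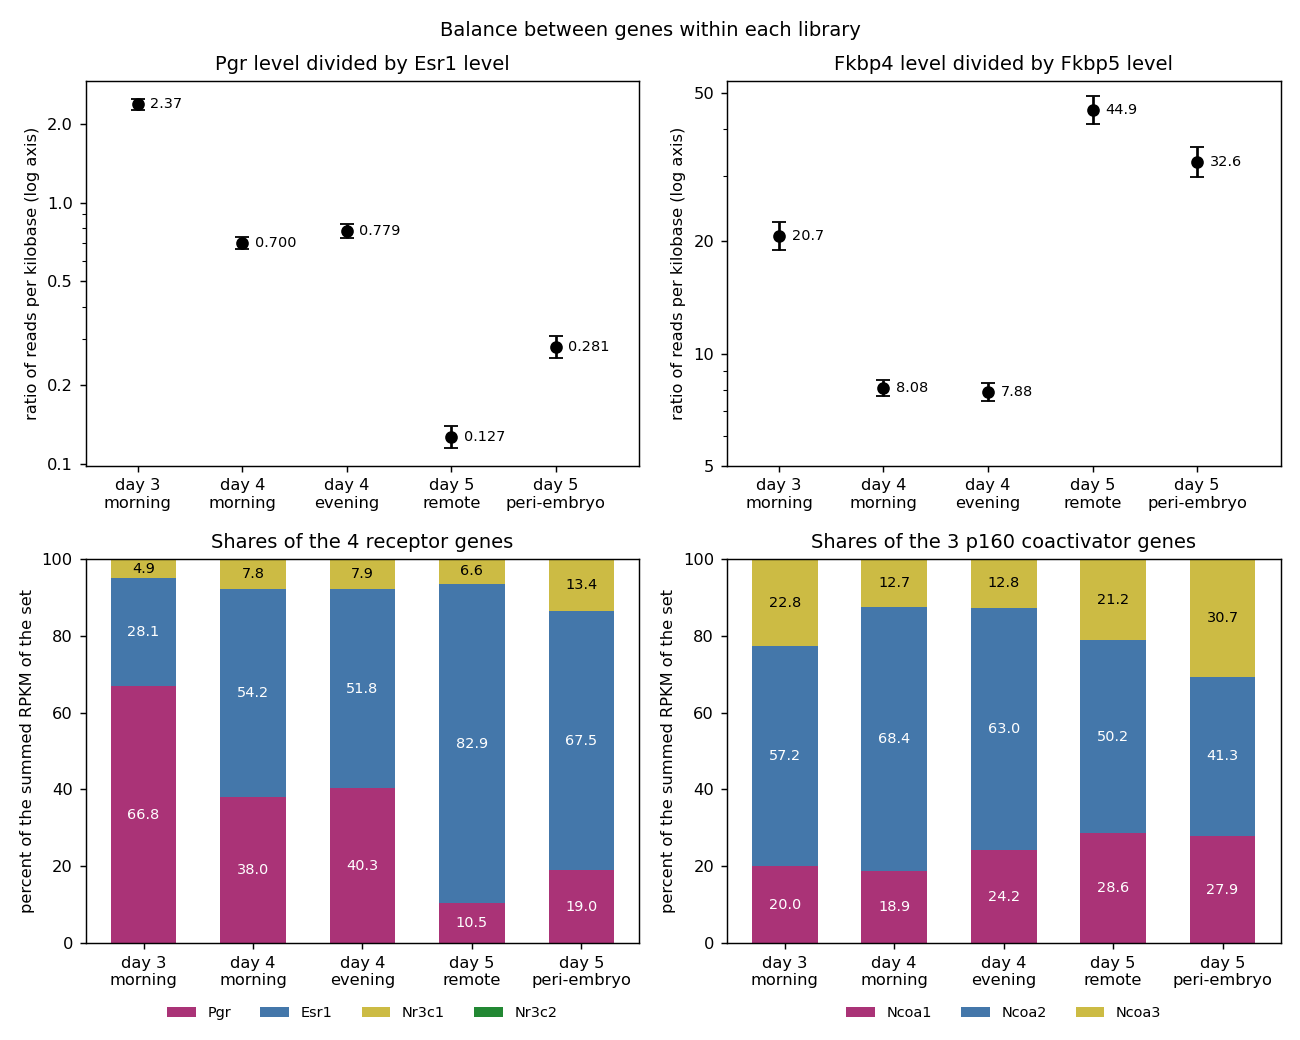
Balance between genes within each of the 5 libraries: ratios of Pgr to Esr1 and of Fkbp4 to Fkbp5 per length on log axes with exact 95% intervals (upper panels), and percent of summed RPKM taken by each of the 4 receptor and each of the 3 p160 genes (lower panels). Pgr to Esr1 drops from 2.37 on day 3 to 0.127 in the remote layer, and the Ncoa2 share peaks at 68.4% on day 4 morning.

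The comparisons with day 4 morning ask how each stage differed from the uterus before attachment, and they share the day 4 morning library. On day 3, 1 of the 8 genes kept was called, Pgr, which was higher by 1.32 [1.26, 1.38] on the log2 scale. Across all genes kept, 18.9% were called in this comparison, 11.5% higher and 7.47% lower. The other 7 genes lay between -0.73 (Ncoa2) and 0.37 (Ncoa3), and the median of the 8 was -0.25 against 0.00 for all genes kept. On day 4 evening, 0 of the 8 genes were called, where 14.2% of all genes kept were, 7.21% higher and 6.95% lower. The values of the 8 genes ran from -0.37 (Esr1) to 0.23 (Ncoa1), with a median of -0.17 against 0.00 for all genes.

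In the remote layer, 2 of the 8 genes were called, Pgr and Nr3c1, both lower, where 29.3% of all genes kept were called, 14.9% higher and 14.3% lower. Pgr stood there at -2.64 [-2.78, -2.51], and only 3.62% of the genes kept had a lower value. The median of the 8 genes was -0.11 against 0.00 for all genes kept. In the peri-embryo layer, 2 of the 8 genes were called, Pgr and Ncoa2, both lower, where 43.3% of all genes kept were called, 20.7% higher and 22.6% lower. Pgr stood there at -2.24 [-2.37, -2.12], and the median of the 8 genes was -0.34 against -0.03 for all genes.

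The comparison of the peri-embryo with the remote layer asks what differed between both places on the same morning. None of the 8 genes was called, where 28.3% of all genes kept were, 13.4% higher and 15% lower, and the values ran from -0.75 (Esr1) and -0.74 (Ncoa2) to 0.56 (Nr3c1). With library totals as the scale, the median of all genes kept moved to 0.29 on day 3, to 0.28 in the remote layer and to -0.36 between the day 5 libraries, so smaller differences than these depend on the scaling. In all 5 comparisons, the share of the 8 genes called in either direction was below that of all genes kept. Adding the exact test of edgeR at a preset dispersion of 0.1 and a false discovery rate under 0.05 to the 2-fold rule left Pgr called in both day 5 libraries against day 4 morning, and ended the calls of Pgr on day 3, of Nr3c1 and of Ncoa2.

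**Figure D3:**
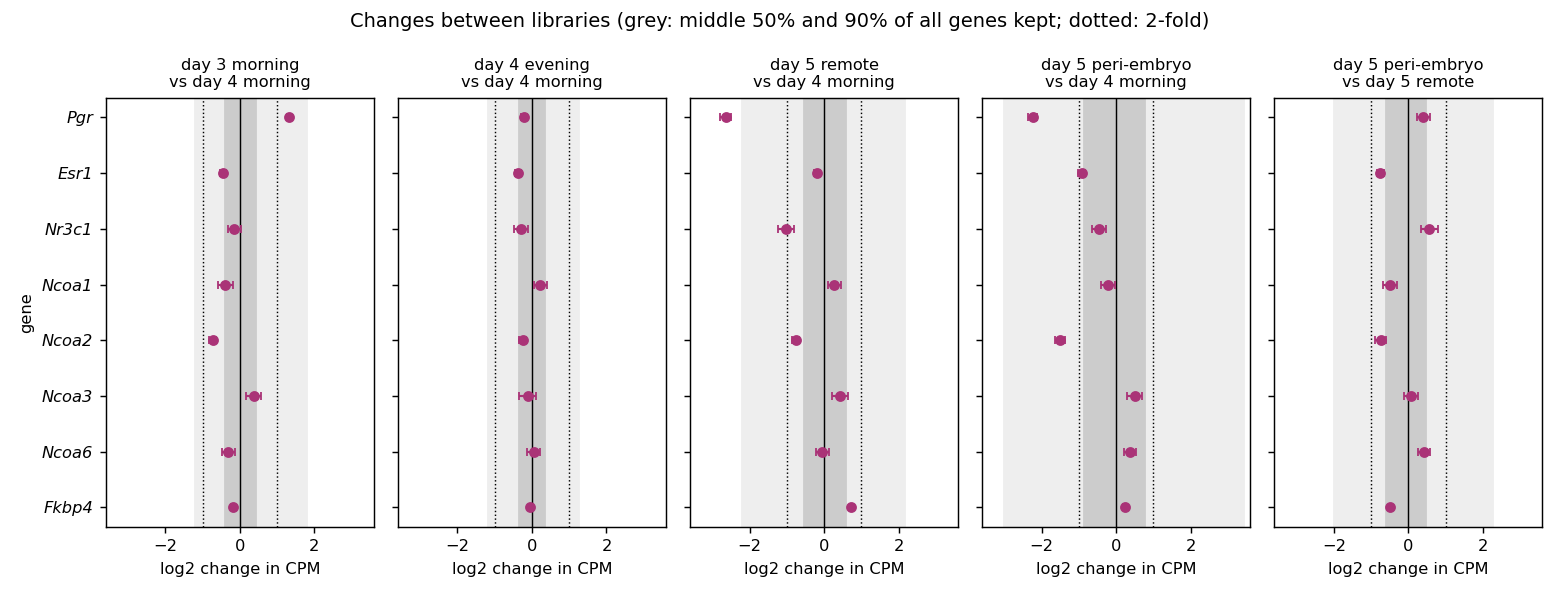
Log2 change in CPM (horizontal axes) of the 8 genes kept in the 5 comparisons, with exact 95% intervals of the count ratio, grey bands for the middle 50% and 90% of all 12915 genes kept, and dotted lines at 2-fold. Pgr lies outside the 90% band only in the remote layer, at -2.64, and 5 of the 8 genes lie within the dotted lines in every panel.

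The called changes went along with other shifts between the libraries. Where Pgr fell on day 5, the luminal marker Calb1 had 1357 counts in the remote and 306 in the peri-embryo layer, from 143278 on day 4 morning. The epithelial markers named above summed to 3791 CPM on day 4 morning and to 2622 and 4954 CPM in the remote and peri-embryo layers. Single epithelial markers went in opposite directions. In the same order of libraries, Krt19 stood at 763, 38.0 and 159 CPM and Epcam at 391, 635 and 1524 CPM. The stromal markers summed to 521, 541 and 417 CPM in these libraries. Single stromal markers went far in both directions in the peri-embryo layer, where Hand2 stood at 132 CPM against 4.40 CPM on day 4 morning and Dcn at 14.1 CPM against 71.7 CPM. For Ncoa2 and Esr1, the lowest library was the one in which all 6 embryo and all 4 smooth muscle markers were at their highest and all 4 leukocyte markers at their lowest. The gland list (Foxa2, Cxcl15, Prss28, Prss29, Spink1, Lif) summed to 31.2 CPM there and to 6.01 CPM or less elsewhere. Lif, which stroma around the embryo is also known to express, took 17.7 CPM of it. The gland genes Foxa2 and Cxcl15 were lower there, at 1.22 and 0.813 CPM, than on day 4 morning, at 2.84 and 1.78 CPM. Prss28, Prss29 and Spink1 were at their highest there, at 2.55, 4.30 and 4.70 CPM, against 0, 0 and 0.445 CPM on day 4 morning. The endothelial list (Pecam1, Cdh5, Kdr, Tek) summed to 93.9 CPM there and to 9.39 to 40.5 CPM elsewhere, of which Cdh5 took 71.4 CPM, while Kdr was at its lowest, at 1.05 CPM, and Tek was higher in the remote layer, at 25.3 against 14.3 CPM. The part of these shifts in the receptor and coactivator results was not tested.

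Among the other receptors, Esr2, estrogen receptor beta, was barely counted. It had 27 counts on day 4 morning, 1 count on day 4 evening and 0 in the other 3 libraries, so that day 4 morning was at least 8.70-fold higher than day 3 against the floor of 3 counts, a bound that leaves out the counting error of the 27 counts. Gper1, a membrane receptor for estrogen that the table lists as Gpr30, behaved unlike Esr1. It had 553 counts on day 3, 1674 and 862 in the morning and evening of day 4, and 20 and 24 in the remote and peri-embryo layers, which put it at -1.55 on day 3 and at -6.30 [-7.16, -5.81] and -5.95 [-6.71, -5.49] on day 5.

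Esrra, an orphan receptor related to estrogen receptors, was lower than on day 4 morning on day 3, at -1.31, and in the remote and peri-embryo layers, at -2.17 and -2.01. The putative membrane progesterone receptors Pgrmc1 and Pgrmc2 kept within 2-fold of day 4 morning throughout, at -0.53 to -0.22 and -0.84 to 0.43. Paqr9, from another family of membrane progesterone receptors, was higher on day 5, at 2.22 and 2.44, from 6 counts on day 4 morning. Of 13 other receptors, 10 were kept, and 2 were called lower and 0 higher on day 3, 1 each on day 4 evening, 2 lower and 1 higher in the remote layer, and 4 lower and 3 higher in the peri-embryo layer. Of all genes kept, 18.9%, 14.2%, 29.3% and 43.3% were called in either direction in these comparisons. The medians of the 10 receptors were -0.58, -0.25, -0.34 and -0.69, against -0.03 to 0.00 for all genes.

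All 19 other coactivators were kept. On day 3, 1 was called higher and 0 lower, on day 4 evening 1 each, in the remote layer 2 higher and 1 lower, and in the peri-embryo layer 1 higher and 2 lower, where 18.9%, 14.2%, 29.3% and 43.3% of all genes kept were called in either direction. Their medians lay between -0.18 and 0.13. Crebbp and Ep300, which encode CBP and p300, kept within 2-fold of day 4 morning, at -0.45 to 0.19 and -0.34 to 0.08, as did the acetyltransferase gene Kat2b, at -0.74 to 0.99. Ncoa4 was lower on day 4 evening, at -1.03, and in the remote and peri-embryo layers, at -1.53 and -1.63. Ppargc1a, a coactivator of mitochondrial genes, was higher in the remote layer, at 1.66 [1.41, 1.95], and lower in the peri-embryo layer, at -1.74 [-2.33, -1.28]. Ppargc1b was higher in all 4 other libraries than on day 4 morning, by 1.76 to 3.17, but from 5 counts there.

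Ncoa6 works in a complex with the histone methyltransferases that the table lists as Mll3 (Kmt2c) and Mll2 (Kmt2d). Of 9 other genes of this complex, all kept, none was called on day 3 or day 4 evening. In the remote layer 1 was lower, and in the peri-embryo layer 1 was higher and 2 lower. The shares of all genes kept that were called in these comparisons were 18.9%, 14.2%, 29.3% and 43.3%. Kdm6a, a histone demethylase, was lower on day 5, at -1.44 [-1.55, -1.34] in the remote and -1.38 [-1.49, -1.27] in the peri-embryo layer. In the peri-embryo layer, Mll3 was lower, at -1.08, and Wdr5, a scaffold of the methyltransferase core, higher, at 1.25, while Mll2 stood at 0.82. The medians over the complex lay between -0.14 and 0.40.

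Of 12 corepressors, 11 were kept. None was called on day 3 or day 4 evening, where 18.9% and 14.2% of all genes kept were. Nrip1, which encodes the receptor-binding corepressor RIP140, had 1284, 2080, 1545, 501 and 793 counts in the order of the libraries, and lay at -2.10 [-2.25, -1.97] in the remote and -1.33 [-1.45, -1.21] in the peri-embryo layer against day 4 morning. Lcor, a ligand-dependent corepressor, was higher in the peri-embryo layer, at 1.03. Ncor1, which encodes NCoR, stood at -0.67 and -0.62, within 2-fold, and Tbl1xr1, a subunit of the corepressor complex, was lower in the peri-embryo layer, at -1.13. In all, 1 corepressor was lower in the remote layer and 2 were higher and 2 lower in the peri-embryo layer, with medians of -0.01 and 0.09. In these layers, 29.3% and 43.3% of all genes kept were called.

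Of 16 chaperones and cochaperones of receptors, all kept, Fkbp5 was the only one called on day 3, and none was called on day 4 evening. The Hsp90 genes Hsp90aa1 and Hsp90ab1 kept within 2-fold of day 4 morning, at -0.07 to 0.55 and -0.39 to 0.19, as did Ptges3, the gene of the cochaperone p23, at -0.68 to 0.12. Bag1, which encodes a cochaperone of Hsp70, was higher on day 5, at 1.82 [1.76, 1.89] in the remote and 1.21 [1.14, 1.28] in the peri-embryo layer. In the peri-embryo layer, Dnajb1 was higher, at 1.07, and Ppp5c, a phosphatase bound to Hsp90, was lower, at -1.11. The list had 1 gene higher and 1 lower in the remote layer and 2 of each in the peri-embryo layer, with medians of -0.03 and 0.15. Across all genes kept, 18.9% and 14.2% were called on day 3 and day 4 evening, and 29.3% and 43.3% in the remote and peri-embryo layers.

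Of 13 enzymes of steroid metabolism, 12 were found and 7 kept. On day 3, 1 was lower and 0 higher, on day 4 evening 2 were higher and 0 lower, in the remote layer 4 were higher and 1 lower, and in the peri-embryo layer 2 were higher and 4 lower. Of all genes kept, 18.9%, 14.2%, 29.3% and 43.3% were called in these comparisons, and no difference between lists was tested. Hsd17b2, whose enzyme inactivates estradiol, had 0 counts on day 3 and day 4 morning, 18 on day 4 evening, 85 in the remote and 4486 in the peri-embryo layer. Against a floor of 3 counts on day 4 morning, it was at least 6.81-fold higher on day 4 evening, at least 27.3-fold higher in the remote layer and at least 1559-fold higher in the peri-embryo layer. These bounds leave out the counting error of its own counts, with which the exact lower limits were 2.32, 4.44 and 10.31 on the log2 scale. H6pd, which supplies cofactor to the enzyme of Hsd11b1, was higher by 4.57 [4.43, 4.73] and 5.15 [5.01, 5.30] on the log2 scale in the remote and peri-embryo layers. Hsd11b2, whose enzyme inactivates glucocorticoids, had 204, 423, 361, 124 and 30 counts in the order of the libraries, and lay at -1.81 [-2.13, -1.53] and -3.67 [-4.34, -3.22] on day 5. Hsd11b1, whose enzyme regenerates active glucocorticoid, had 38 counts on day 4 morning, 103 in the remote layer, at 1.34 [0.83, 1.96], and 3 in the peri-embryo layer, at -2.95 [-5.94, -1.95]. The list medians were -0.18 on day 3, 0.28 on day 4 evening, 1.34 in the remote and -1.01 in the peri-embryo layer.

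**Figure D4:**
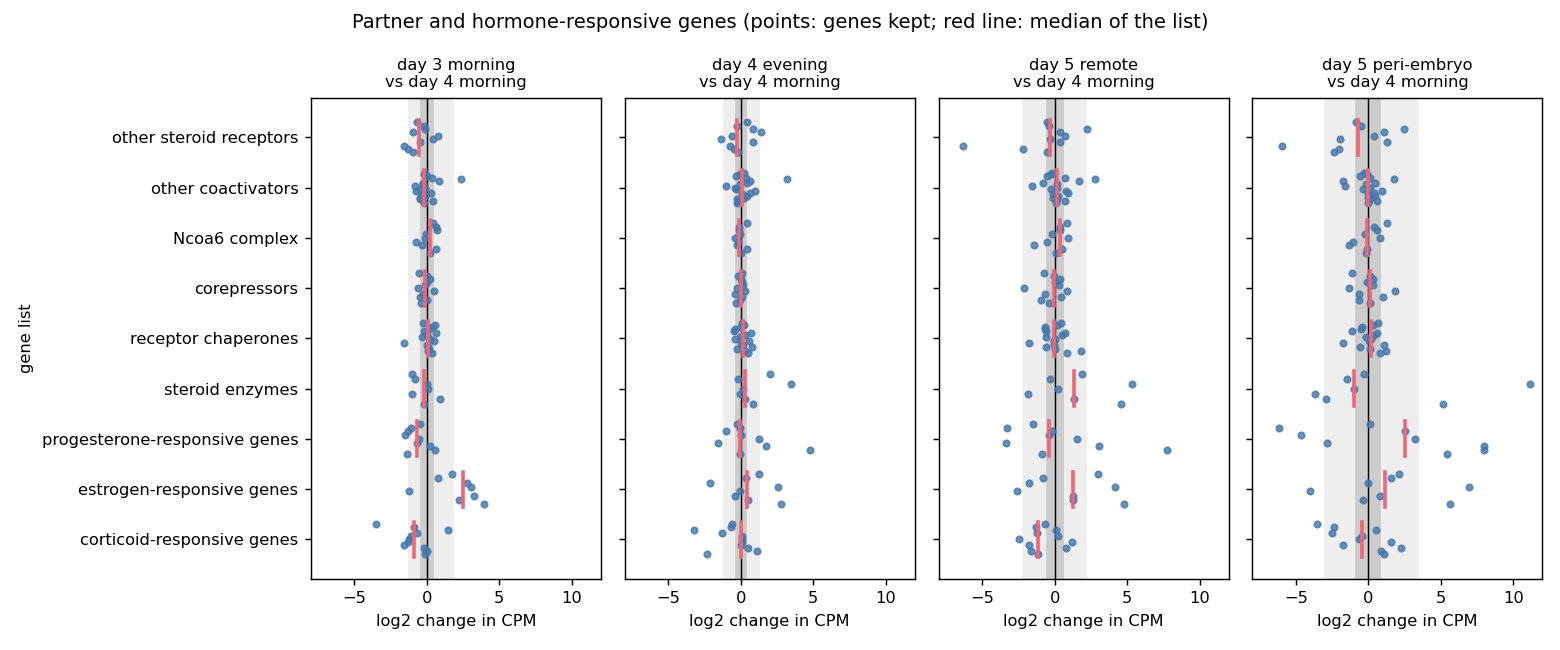
Log2 change in CPM from day 4 morning (horizontal axes) of the genes kept in 9 lists, in 4 libraries, with points for genes, red lines for list medians and grey bands for the middle 50% and 90% of all genes kept. The median of the estrogen-responsive genes lies at 2.52 on day 3, and the medians of the other coactivators, the Ncoa6 complex, the corepressors and the chaperones lie between -0.18 and 0.40 in all 4 panels.

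Genes known to respond to each hormone were set beside the receptors. Of 10 progesterone-responsive genes, 9 were kept, and 4 were lower and 0 higher on day 3 than on day 4 morning, where Pgr was higher on day 3. Of all genes kept, 7.47% were called lower and 11.5% higher on day 3. On day 4 evening, 3 of the 9 were higher and 2 lower, where 7.21% and 6.95% of all genes kept were. On day 5, 3 were higher and 3 lower in the remote layer, and 5 were higher and 3 lower in the peri-embryo layer, where 14.9% and 14.3%, and 20.7% and 22.6%, of all genes kept were called higher and lower. The medians on day 5 were -0.37 and 2.51 against 0.00 and -0.03 for all genes. Lrp2, an endocytic receptor, was lower on day 5, as Pgr was, at -3.27 in the remote and -6.17 in the peri-embryo layer, and lower on day 3, at -1.10, where Pgr was higher. Cyp26a1, which encodes a retinoic acid hydroxylase, had 605 counts on day 3, 432 and 10542 in the morning and evening of day 4, and 99164 and 103074 in the remote and peri-embryo layers. Areg, encoding amphiregulin, was higher than on day 4 morning in the peri-embryo layer, by 5.41, and Fst, encoding follistatin, had 20 counts on day 4 morning, 185 in the remote and 5226 in the peri-embryo layer.

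Of 8 estrogen-responsive genes, all kept, 6 were higher and 1 lower on day 3 than on day 4 morning, with a median of 2.52 against 0.00 for all genes, while Esr1 itself stood at -0.44. Complement C3, Greb1, a growth regulator, and Lcn2, encoding lipocalin 2, were higher on day 3 by 3.91, 3.22 and 3.06. On day 4 evening, 3 were higher and 1 lower, with a median of 0.46. In the remote layer, 5 were higher and 2 lower, and in the peri-embryo layer 4 were higher and 1 lower, with medians of 1.26 and 1.17. Of all genes kept, 11.5%, 7.21%, 14.9% and 20.7% were called higher and 7.47%, 6.95%, 14.3% and 22.6% lower in these comparisons. In the remote and peri-embryo layers, Lcn2 was higher by 4.19 and 6.95. Igf1, encoding a growth factor that stroma also makes, lay there at -2.59 and -4.03.

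Of 11 corticoid-responsive genes, all kept and with Fkbp5 among them, 5 were lower and 1 higher on day 3, 3 lower and 1 higher on day 4 evening, 6 lower and 1 higher in the remote layer, and 4 lower and 3 higher in the peri-embryo layer. Of all genes kept, 7.47%, 6.95%, 14.3% and 22.6% were called lower and 11.5%, 7.21%, 14.9% and 20.7% higher. The medians were -0.89, -0.01, -1.15 and -0.48, against -0.03 to 0.00 for all genes. Zbtb16, a target of glucocorticoid and progesterone receptors, was lower on day 3, at -3.51, and in the peri-embryo layer, at -3.55, and stood at -0.65 in the remote layer. Mt2, encoding a metallothionein, was lower on day 3, at -1.22, and in the remote layer, at -2.49, and stood at -0.65 in the peri-embryo layer. Scnn1a, a subunit of the epithelial sodium channel, was lower on day 4 evening, at -1.27, and in the remote and peri-embryo layers, at -1.22 and -2.54. Sgk1, a kinase that raises epithelial sodium transport, had 13772, 5105, 481, 5584 and 7110 counts in the order of the libraries. It was at -3.22 on day 4 evening, where Nr3c1 stood at -0.28 and Nr3c2 had 0 counts. Nr3c2 also had 0 counts on day 4 morning and in the remote layer, where Sgk1 had 5105 and 5584 counts.

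Genes with courses most like those of Pgr, Esr1, Nr3c1 and Fkbp4 were sought among 8841 other genes of 10 CPM or more on average, by the root mean square difference of centred log2 CPM over the 5 libraries, as a description. For Pgr they were Vav3, at a difference of 0.29, Plat, Anxa1, Rasgrp3 and Fcgbp, the last at 0.40, while the median over all these genes was 1.52. Vav3, encoding a guanine nucleotide exchange factor, had 1525, 781, 566, 187 and 136 counts in the order of the libraries, and Anxa1, encoding annexin A1, had 32383, 24247, 14971, 4385 and 4236. For Esr1 they were Anapc2 (0.058), Pddc1, Fam53a, 4833420G17Rik and Nek9, and the median over all genes was 0.50. For Nr3c1 they were Hmgn3 (0.049), Cdc73, Kdm1b and Tbc1d12, with a median of 0.53, and for Fkbp4 Ddx41 (0.069), Slc25a36, Wdsub1 and Elp2, with a median of 0.51. Nr3c2 was too low for such a search.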

How the data were processed

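Luminal layers were laser-microdissected from wildtype uteri, and RNA was amplified with a SMART-seq v.4 kit. The authors aligned paired-end reads to GRCm38/mm10 with HISAT2 and deposited raw counts per gene from featureCounts of Subread 2.0.0, with gene positions and lengths in bases. The gene annotation, the strand setting and the treatment of multiply aligned reads were not given in the sources used here. Of the 23420 names, 27 have the form of dates.

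Counts were scaled by TMM (edgeR 4.0.16, R 4.3.3). The prior count of log2 CPM was 2, and genes under 1 CPM on average were left out. RPKM values were computed from the same scaled totals and the deposited lengths. Exact 95% intervals used scipy 1.17.1, and a floor of 3 counts stood in for 0. The intervals cover counting error only. They treat reads as independent, which reads of amplified RNA are not, so they can be too narrow even for counting error. Python 3.11.15, pandas 2.3.3, numpy 2.4.6 and matplotlib 3.10.9 were also used. The calculations were tested on simulated data.

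The 9 genes and all lists were chosen with earlier results of these data known. Named from each list were direct partners of the 9 genes and the 4 genes kept with the largest absolute log2 change from day 4 morning. The 5 most similar genes were sought for each of Pgr, Esr1, Nr3c1 and Fkbp4. Some genes that these rules name are not reported here. Alternatives were size factors of DESeq2 1.42.0, library totals with or without Rn45s and Lars2, log2(RPKM + 1), a prior count of 0.5, a minimum of 5 CPM or none, 1.5-fold, an exact test at a preset dispersion of 0.1 and, added after seeing the data, scaling and filtering without the peri-embryo library.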

Additional observations from a re-analysis of the deposited data

Results flagged for a closer look

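Ncoa1 moved in opposite directions in the 2 day 5 libraries relative to the day 4 morning library that they share: its log2 change was 0.28 in the remote and -0.22 in the peri-embryo layer. Both values lie within 2-fold, each condition has 1 library, and the difference was not tested beyond counting error.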

How the results depend on the processing

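No paired analysis was possible because each condition has 1 library, and for the same reason no library could be left out as a replicate. The log2 changes of the 8 genes kept (not Nr3c2) were recomputed under the alternatives, 304 values in all. Among these are the settings without a filter and with a minimum of 5 CPM. A filter does not alter a log2 change, so the sign could not differ there. With these included, 289 kept their sign, and none of a gene beyond 2-fold took the other. The 15 that did had a size of 0.20 or less in the values reported and came from library totals, with or without Rn45s and Lars2, or from log2(RPKM + 1). Library totals moved the median of all genes kept from 0.00 to 0.29 on day 3 and to 0.28 in the remote layer against day 4 morning, and from -0.05 to -0.36 between the day 5 libraries. The calls then split into 2209 higher and 538 lower on day 3 (1480 and 965 with TMM), 2690 and 1399 in the remote layer (1930 and 1850), and 1288 and 2807 between the day 5 libraries (1729 and 1932). Without Rn45s and Lars2 in the totals the first of these splits was 1877 and 773 and the last 1367 and 2788, and with log2(RPKM + 1) the splits on day 3, on day 4 evening and in the remote layer were 1202 and 185, 404 and 248, and 1717 and 937. Between the day 5 libraries, 2 of the genes described (Esr1 and Ncoa2) passed 2-fold with library totals and also without Rn45s and Lars2 in them, 1 (Esr1) with log2(RPKM + 1), 1 (Nr3c2) without a filter and 2 (Esr1 and Ncoa2) at 1.5-fold. In the remote layer against day 4 morning, 1 (Pgr) passed with totals without Rn45s and Lars2, 4 (Pgr, Nr3c1, Ncoa2 and Fkbp4) at 1.5-fold and 1 (Pgr) with the exact test added. On day 3, 2 passed without a filter (Pgr and Nr3c2), 2 at 1.5-fold (Pgr and Ncoa2) and 0 with the exact test, and in the peri-embryo layer 1 (Pgr) with the exact test and 3 (Pgr, Esr1 and Ncoa2) with totals without Rn45s and Lars2. The number of all genes called moved by over 1.5 times on day 3 and day 4 evening with log2(RPKM + 1) (1387 and 652). On day 3, on day 4 evening and between the day 5 libraries it was 4368, 3585 and 5855 without a filter and 1438, 1015 and 2436 at 5 CPM. At 1.5-fold it was 4822, 3912, 6268 and 6002 on day 3, on day 4 evening, in the remote layer and between the day 5 libraries. With the exact test it was 476, 241, 1506 and 3158 in the 4 comparisons with day 4 morning and 1400 between the day 5 libraries. The cause of these differences was not tested beyond what each setting changes. Nr3c2, at 6 counts or fewer, lies at the limit that depth sets.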
